A study of Homo sapiens with 3 samples.

Results

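The cells described here are HS-5 cells, an immortalised human bone marrow stromal line, taken either from their own culture or from a 4 h coculture with the myeloma line MM.1S. They make up 5837 of the 11535 cells with at least 200 detected genes in the 3 Drop-seq libraries of the study. All 3732 such cells of the HS-5 monoculture library were members, and 2105 came from the coculture library. A cocultured cell was called HS-5 by its RNA. Genes of each line were those with at least 50 CPM (UMIs of a gene per 1000000 UMIs of the summed cells) in its own monoculture and at least a 50-fold excess over the other monoculture, which gave 231 HS-5 genes and 82 MM.1S genes, mitochondrially encoded genes excluded. Each cell's share of transcripts on either set was divided by the median share in the matching monoculture, and a cell was HS-5 where the HS-5 part of the sum exceeded 0.8.

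Single-cell suspensions of an MM.1S monoculture, an HS-5 monoculture and the coculture were encapsulated with barcoded beads, and transcripts were counted as unique molecular identifiers (UMIs). The labels list no treatment and no genetic modification for the 3 samples. In their own cultures MM.1S cells are grown in RPMI and HS-5 cells in DMEM, and the medium of the coculture is not given in the sources used here, so the presence of myeloma cells, any change of medium and the library itself cannot be told apart. Each condition was 1 library, so no test between conditions was possible, and the intervals below are 95% intervals for counting error only, exact Poisson for a level, exact conditional binomial for a ratio and Clopper-Pearson for a share of cells.

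Marrow stromal cells secrete matrix, proteases, cytokines and growth factors, and in the marrow they provide myeloma plasma cells with adhesion sites and with interleukin-6, a survival factor for them. HS-5 is known for its abundant secretion of interleukins, colony-stimulating factors and chemokines. Many of these genes respond to the transcription factors NF-κB and AP-1, and interferon-stimulated genes answer to the STAT and IRF factors through a short promoter element, the interferon-stimulated response element (ISRE).

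In the coculture, 2105 of 3856 cells were HS-5, a share of 54.6% (53.0 to 56.2%), 1647 were MM.1S, and 104 (2.70%) had an HS-5 part from 0.2 to 0.8 and were left out. An HS-5 part above 0.9 was found in 2085 cells. Only 20 cells lay between 0.8 and 0.9, and 21 lay just outside, between 0.7 and 0.8. The lowest HS-5 part of any cell in the HS-5 monoculture was 0.820 and the highest in the MM.1S monoculture was 0.158, which describes the rule and does not test it, since the line genes were picked and the parts scaled on these same monocultures. The 5 stromal markers MMP1, MMP3, IL6, COL1A1 and COL1A2 were present in both libraries, with a summed level of 16778 CPM in monoculture and 14966 CPM in coculture. All 5 are among the 231 HS-5 line genes, so their presence in the chosen cocultured cells was set by the rule. Markers of endothelium, macrophages, adipocytes and the osteogenic lineage, and the pan-leukocyte gene PTPRC, were each under 10 CPM in both.

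Median depth was alike, but the deeper cells of the monoculture held more UMIs. Monocultured HS-5 cells held 6142273 UMIs, with a median of 971.5 UMIs (upper quartile 1687) and 713 genes per cell. Cocultured HS-5 cells held 2478655 UMIs, with medians of 957 UMIs (upper quartile 1469) and 711 genes. Sums weigh cells by depth, and equal weight per cell gave 548 genes at least 1.5-fold higher and 531 lower where the sums gave 328 and 355. A total of 3 UMIs corresponds to 0.488 CPM in monoculture and 1.21 CPM in coculture. Of 9 plasma cell markers, SDC1 was at 135 and 126 CPM in HS-5 cells and set neither line apart, and the other 8 were scarce there. Apart from SLAMF7, scarce in both lines, those 8 have the levels of MM.1S line genes, so their scarcity there was set by the rule. JCHAIN was at 0.98 CPM in monocultured and 27.8 CPM in cocultured HS-5 cells, MZB1 at 0.16 and 8.88 CPM and TNFRSF13B at 0.16 and 3.63 CPM. CD38 and TNFRSF17 had few UMIs in either, and IRF4 (1.63 and 0.81 CPM), POU2AF1 (1.30 and 0.81 CPM) and SLAMF7 (1.14 and 0 CPM) were lower in coculture. From the 82 MM.1S genes, 0.746% of the UMIs of cocultured HS-5 cells were estimated to be free RNA of MM.1S cells. The same genes set the HS-5 part, and cells with a high share of them were left out, so the estimate is low in part by the rule. The 2 HS-5 files shared 76 barcodes, of which 7 marked HS-5 cells kept from the monoculture and 3 those kept from the coculture, and leaving these out gave 326 genes higher and 355 lower in place of 328 and 355.

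HS-5 cells kept most of their expression profile in coculture. Of 3700 genes averaging 50 CPM or more across the pair of libraries, 3017 (81.5%) differed by less than 1.5-fold, 328 were at least 1.5-fold higher in coculture and 355 at least 1.5-fold lower. These counts set the background for every gene group below, 8.86% of genes higher and 9.59% lower. The minimum was on the mean, so a gene could meet it through the higher library alone, here and in the groups. Past 2-fold, 43 genes were higher and 53 lower. The median log2 ratio, coculture over monoculture with 1 CPM added to each level, was -0.02, with quartiles of -0.30 and 0.27. Scaling by the median of ratios in place of all UMIs lowered the median to -0.10 and gave 239 genes higher and 452 lower, or 34.6% higher of those past the limit instead of 48.0%.

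**Figure D1:**
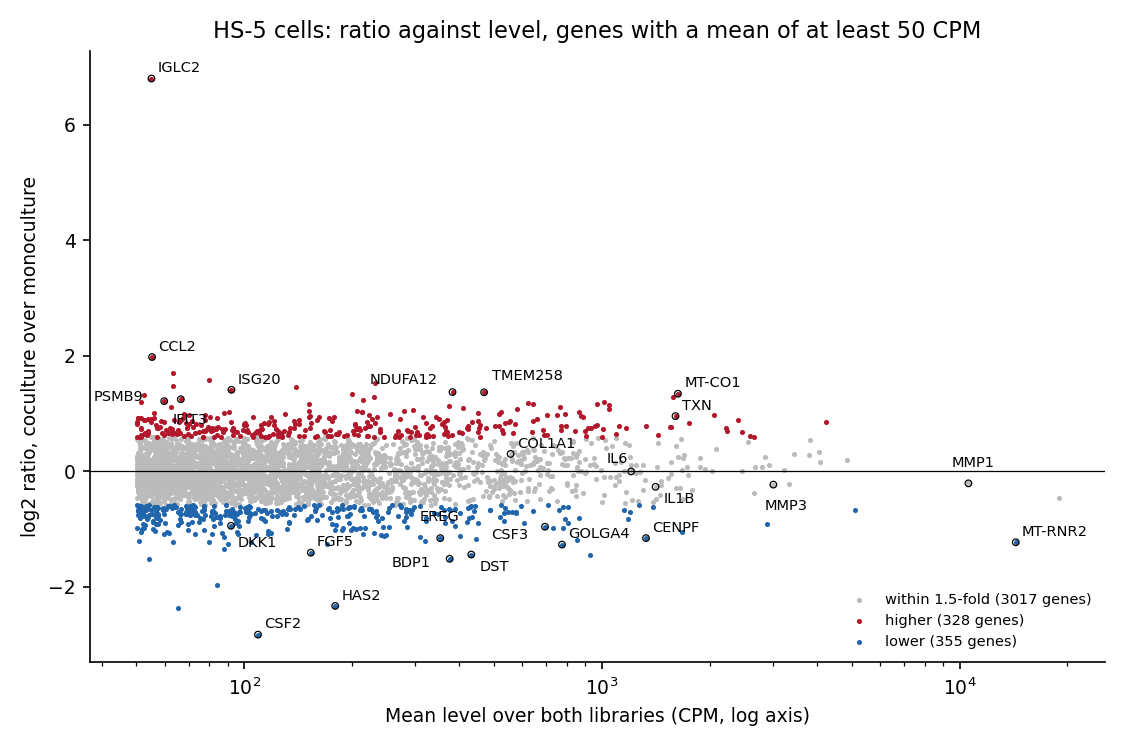
Mean level over both libraries (x, CPM, log axis) and log2 ratio of coculture over monoculture (y) for the 3700 genes averaging 50 CPM or more in HS-5 cells, 1 point per gene and 1 library per condition. Red marks the 328 genes at least 1.5-fold higher, blue the 355 at least 1.5-fold lower. CSF2 and HAS2 lie lowest among the labelled genes, IL6 lies at 0, and IGLC2, an immunoglobulin chain of the MM.1S cells, lies far above the rest.

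Among genes averaging 100 CPM or more, the lowest ratio was that of CSF2 (chr5:132073790-132076170 of GRCh38), which encodes the granulocyte-macrophage colony-stimulating factor GM-CSF. It was at 192 CPM in monoculture (182 to 204) and 26.2 CPM in coculture (20.2 to 33.4), 7.34-fold lower, from 1182 and 65 UMIs. With each cell thinned to 1000 UMIs and shallower cells left out, leaving 1802 monocultured and 1000 cocultured cells, 15.1% of monocultured cells (13.5 to 16.8) and 2.30% of cocultured cells (1.46 to 3.43) had a CSF2 UMI. In MM.1S cells no CSF2 UMI was found at that depth in 3870 monocultured or 378 cocultured cells. CSF3, encoding the granulocyte factor G-CSF, was at 917 and 470 CPM, a log2 ratio of -0.96 (-1.05 to -0.87), and its share of cells was 53.5% against 33.0%. IL11, of the IL-6 family, was at 51.0 and 24.6 CPM, under the 50 CPM minimum for the mean.

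The main myeloma growth factor did not follow them. IL6 was at 1209 CPM in monoculture (1182 to 1237) and 1205 CPM in coculture (1163 to 1250), and 51.2% and 53.1% of the thinned cells had an IL6 UMI, with intervals that overlapped. IL1B, encoding interleukin-1β, was at 1545 and 1281 CPM, a log2 ratio of -0.27 (-0.33 to -0.21), with 67.3% of cells against 60.5%. IL1A was at 172 and 117 CPM, also within 1.5-fold. Of the neutrophil chemokines, CXCL8 was at 1664 and 1243 CPM, a log2 ratio of -0.42, and was detected in 59.2% and 46.5% of cells, whereas CXCL5 was at 757 and 811 CPM. CXCL1 was at 98.7 and 150 CPM and passed the limit upwards with a log2 ratio of 0.60 (0.42 to 0.80).

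Among the 15 cytokine and chemokine genes averaging 50 CPM or more, 3 were thus higher (CCL2, IL32 and CXCL1), 2 lower (CSF2 and CSF3), and the median log2 ratio was -0.00, against -0.02 for all genes, and -0.27 with the trend with transcript length removed. CCL2, the monocyte chemoattractant MCP-1, had the highest ratio of them, with 21.8 CPM in monoculture (18.3 to 25.8) and 88.8 CPM in coculture (77.4 to 101). It met the minimum for the mean through the coculture, being under 50 CPM in monoculture. CCL2 was not particular to the stromal cells. In MM.1S cells it was at 4.22 CPM in monoculture and 104 CPM in coculture, and at 1000 UMIs per cell it was detected in 5.60% of cocultured HS-5 cells (4.26 to 7.21) and in 6.88% of cocultured MM.1S cells (4.54 to 9.92). After subtraction of the estimated free RNA the HS-5 log2 ratio for CCL2 was 1.97. The part of free RNA of other cells in the library was not tested beyond that subtraction.

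Counts of NF-κB genes past the limit did not set them apart from all genes. Of 11 measured subunits, kinases and feedback genes, 1 was higher (9.09%, against a background of 8.86%). None was lower, against a background of 9.59%, and with 11 genes such counts say little. Of the 11 ratios 9 were below 0, and the median was -0.34. With a minimum of 10 CPM the median was -0.17. The summed level of all 39 genes of the list was 2462 CPM in monoculture and 2789 CPM in coculture. The gene that was higher was SOD2, the mitochondrial superoxide dismutase, at 825 CPM in monoculture and 1411 CPM in coculture, a log2 ratio of 0.77 (0.71 to 0.84). SOD2 is part of that sum, and its own difference exceeds that of the sum, so the other genes together were lower in coculture. SOD2 UMIs were found in 43.8% and 67.5% of thinned cells. NFKBIA, the inhibitor IκBα that NF-κB itself induces, was at 225 and 191 CPM, and NFKB1 at 98.5 and 67.0 CPM. A further 28 genes of the list were under the minimum, among them RELB, with 90 of 6142273 UMIs in monoculture and 10 of 2478655 in coculture.

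Immediate early genes, among them the AP-1 factors, also held or lay lower. Of 21 measured members 4 were lower and none higher, with a median of -0.15. The members past the limit were KLF2 (71.8 and 39.1 CPM), DUSP5 (121 and 67.8 CPM), KLF6 (259 and 162 CPM) and GADD45A (311 and 206 CPM). JUN was at 292 and 262 CPM. FOS, an AP-1 subunit below the minimum, was at 33.9 CPM in monoculture (29.4 to 38.8) and 3.63 CPM in coculture (1.66 to 6.89), from 208 and 9 UMIs.

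Growth factor genes as a group lay lower in coculture, 7 of 13 measured members against a background of 9.59%, with 1 higher and a median log2 ratio of -0.59. FGF5, a fibroblast growth factor, was at 224 CPM (212 to 236) and 83.5 CPM (72.5 to 95.7), 2.68-fold lower, and its share of cells was 19.4% and 8.0%. EREG, which encodes the EGF receptor ligand epiregulin, was at 489 and 218 CPM, with 28.7% and 16.1% of cells. NRG1, encoding neuregulin, was at 121 and 54.5 CPM, and ADM, encoding adrenomedullin, at 377 and 192 CPM. The remaining members that were lower were ANGPTL4, VEGFC and FGF2, and FGF2 stood at the limit, with 1525 and 1011 CPM. MDK was higher, at 48.0 and 76.3 CPM, and met the minimum for the mean through the coculture. VEGFA, at 162 and 216 CPM, was within 1.5-fold. Per cell, the whole list held a median of 5 UMIs of 1000 in monoculture and 4 in coculture, and 21.3% of cocultured cells exceeded the monoculture median.

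DKK1, a secreted antagonist of Wnt signalling linked to bone disease in myeloma, was at 121 CPM in monoculture (113 to 130) and 62.5 CPM in coculture (53.1 to 73.2). Of the Wnt ligands, WNT5B was at 89.1 and 37.5 CPM and WNT5A at 553 and 692 CPM.

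HAS2, which makes hyaluronan, a major polysaccharide of the pericellular matrix, had the next lowest ratio after CSF2 at that level. It was at 301 CPM (287 to 315) in monoculture and 58.9 CPM (49.7 to 69.3) in coculture, 5.10-fold lower, and was detected in 20.5% and 5.70% of thinned cells. CD44, the hyaluronan receptor, was at 571 and 535 CPM. PTX3, encoding a protein that crosslinks hyaluronan matrix, was at 82.9 and 49.2 CPM. Of 8 measured members of this group 2 were lower and none higher.

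The fibrillar matrix itself showed no shift of that size. COL1A1 was at 498 and 613 CPM and COL1A2 at 454 and 556 CPM, and of 23 measured collagen and matrix genes 2 were higher (P4HA1 and COL5A1) and none lower. Among 16 proteases and their inhibitors 4 were lower and none higher. The interstitial collagenase MMP1, at 11357 and 9817 CPM, and the stromelysin MMP3, at 3259 and 2774 CPM, were within 1.5-fold, as was the protease inhibitor TFPI2 at 3206 and 3270 CPM. MMP14, at 374 and 247 CPM, ADAMTS1, at 463 and 290 CPM, and the plasminogen activator inhibitor SERPINB2, at 584 and 315 CPM, were lower. Genes of the TGF-β and YAP responses were split, with 2 of 16 higher (SMAD3 and LTBP1) and 4 lower (CRIM1, FST, AMOTL2 and F3). THBS1, a target of both pathways, was at 606 and 594 CPM. Of 17 adhesion receptors, ITGB1, the common β chain of many integrins, was higher at 353 and 593 CPM, and ALCAM, ITGA6 and THY1 were lower.

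These secreted and matrix genes overlap with the genes that marked a cell as HS-5. Of the 231 HS-5 line genes 224 averaged 50 CPM or more, of which 8 were higher, 49 lower and the median log2 ratio was -0.18. The background over all genes was 8.86% higher and 9.59% lower, and 306 of the 355 lower genes were not line genes. Line genes were picked for a high level in this same HS-5 monoculture, and the part of that choice in their lower ratios was not tested. CSF2, CSF3, HAS2, FGF5, EREG and DKK1 are among the line genes. Asking the same HS-5 part of the monoculture removed no cell, and with a limit of 0.5 or 0.95 in place of 0.8 the counts over all genes were 332 higher and 362 lower, and 323 higher and 356 lower.

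Interferon-stimulated genes lay higher in coculture. Of 13 measured members 5 were higher, against a background of 8.86%, none was lower, 12 of 13 ratios were above 0 and the median was 0.53. ISG20, an exonuclease (chr15:88636153-88656483), was at 49.98 CPM (44.6 to 55.9) and 134 CPM (120 to 150), a log2 ratio of 1.41. IFIT3, which binds in antiviral complexes on RNA, was at 39.1 and 94.0 CPM. ISG20 and IFIT3 met the minimum for the mean through the coculture, being under 50 CPM in monoculture. IFITM3, a membrane protein that restricts viral entry, was at 172 and 341 CPM, and ISG15, a ubiquitin-like modifier, at 100 and 177 CPM. IFI44 was at 74.7 and 124 CPM. Members such as IFI16 (506 and 510 CPM) and HERC5 (74.1 and 73.8 CPM) were level. Under the minimum, IFIT1 was at 8.14 CPM (6.04 to 10.7) and 41.6 CPM (33.9 to 50.4).

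At this depth the interferon genes were detected in a minority of cells. IFITM3 UMIs were found in 13.04% of thinned monocultured cells (11.5 to 14.7) and 28.7% of cocultured cells (25.9 to 31.6). ISG20 was detected in 3.66% and 12.2% of cells, ISG15 in 8.66% and 14.8% and IFIT3 in 2.00% and 7.20%. MM.1S cells of the coculture also held these messages, with ISG20 in 16.1% and ISG15 in 22.5% of 378 thinned cells, although IFITM3, one of the HS-5 line genes, was in 0.265%. In thinned monocultured MM.1S cells the shares were 11.7% for ISG20 and 27.8% for ISG15. The median log2 ratio of the list in MM.1S cells was 0.57, against 0.18 for all MM.1S genes averaging 50 CPM or more. After subtraction of the estimated free RNA the HS-5 log2 ratio was 1.40 for ISG20 and 0.79 for ISG15, and the list median was 0.50. Over the whole list the median cell held 1 UMI of 1000 in monoculture and 2 in coculture, and the 95th percentile was 5 and 7.

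Promoters of 4 of these genes are shown because most of the list carries the ISRE in the same window. The sequences are the 250 bases before the transcription start in RefSeq (GRCh38.p14), written 5′ to 3′ on the gene's strand. Capitals mark matches to the ISRE core GAAANNGAA on either strand. For IFIT3 the entry shown is the first of 2 in the table.
ISG20 (chr15:88638766-88639015, plus strand): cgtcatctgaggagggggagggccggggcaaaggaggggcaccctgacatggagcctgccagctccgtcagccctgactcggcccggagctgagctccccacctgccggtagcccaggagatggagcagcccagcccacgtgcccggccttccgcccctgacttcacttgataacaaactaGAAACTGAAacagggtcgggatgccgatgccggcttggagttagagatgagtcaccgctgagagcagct
IFIT3 (chr10:89327747-89327996, plus strand): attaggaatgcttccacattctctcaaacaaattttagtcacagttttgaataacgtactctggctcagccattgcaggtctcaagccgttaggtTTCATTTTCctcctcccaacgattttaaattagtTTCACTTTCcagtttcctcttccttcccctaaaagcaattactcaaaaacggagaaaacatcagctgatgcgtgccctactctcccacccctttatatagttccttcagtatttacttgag
IFITM3 (chr11:320861-321110, minus strand): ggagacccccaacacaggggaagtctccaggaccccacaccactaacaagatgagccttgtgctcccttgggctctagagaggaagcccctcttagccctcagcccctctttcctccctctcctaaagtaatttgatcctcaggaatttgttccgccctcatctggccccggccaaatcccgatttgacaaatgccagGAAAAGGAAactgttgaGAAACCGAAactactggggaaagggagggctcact
BST2 (chr19:17405631-17405880, minus strand): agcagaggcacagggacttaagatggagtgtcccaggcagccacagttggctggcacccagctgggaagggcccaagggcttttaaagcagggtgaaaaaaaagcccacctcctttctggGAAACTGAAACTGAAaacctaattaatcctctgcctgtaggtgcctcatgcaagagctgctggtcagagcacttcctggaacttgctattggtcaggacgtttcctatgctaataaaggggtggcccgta
The core was found in 11 of 12 interferon genes with a promoter in the table, in 8.02% of the 2966 genes averaging 50 CPM or more that have an entry, any of a gene's promoters counting, and in 6.88% of all 35116 promoters. BST2 carries overlapping matches and had a log2 ratio of 0.53, within the limit. A 3′ part of the NF-κB element, GGNNTTTCC, was found in 9 of 13 cytokine genes, 9.002% of the same 2966 genes and 5.48% of all promoters. The AP-1 site TGACTCA was found in 2 of 13, 4.05% and 4.203%. Only these exact strings were searched, so variant forms of the sites would be missed. For CSF2, which had the lowest ratio among genes averaging 100 CPM or more, the same window holds none of the 3 strings:
CSF2 (chr5:132073539-132073788, plus strand): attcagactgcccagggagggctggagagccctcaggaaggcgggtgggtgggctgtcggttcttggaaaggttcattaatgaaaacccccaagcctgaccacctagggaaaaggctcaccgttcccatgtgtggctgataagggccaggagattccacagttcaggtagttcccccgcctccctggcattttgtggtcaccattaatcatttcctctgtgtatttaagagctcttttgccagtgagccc

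Genes of MHC class I presentation, which carry peptides to the cell surface and respond to interferon, lay higher in part. Of 14 measured members 4 were higher and 1 lower, with a median log2 ratio of 0.32. B2M, the invariant light chain, was at 1658 and 2779 CPM and was detected in 71.9% and 88.7% of thinned cells. PSMB9, a catalytic subunit of the immunoproteasome, was at 35.7 and 83.9 CPM and met the minimum for the mean through the coculture. Reads of near-identical genes of this group may have been split between them.

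The nuclear respiratory chain list had the most members past the limit by count, but not by share. Larger shares were past it in the mitochondrial genome (76.9% higher) and among growth factors (53.8% lower). Of 72 measured nuclear genes of oxidative phosphorylation 33 were higher (45.8%, against a background of 8.86%) and none lower. In this list 66 ratios were above 0, and the median log2 ratio was 0.48. NDUFA12 (chr12:94897055-95003770), an accessory subunit of complex I, was at 213 CPM (202 to 225) and 552 CPM (523 to 582), 2.59-fold higher, and was detected in 13.04% and 42.1% of thinned cells. ATP5J2, of the ATP synthase, was at 128 and 302 CPM, UQCR10, of complex III, at 379 and 862 CPM, and COX6A1, of complex IV, at 374 and 787 CPM. Larger subunits such as NDUFV1 (114 and 92.0 CPM) and ATP5B (291 and 278 CPM) were within the limit. Per cell, the list held a median of 17 UMIs of 1000 in monoculture, with quartiles of 13 and 22, and 31 in coculture, with quartiles of 25 and 37. Of cocultured cells 94.8% exceeded the monoculture median, against 47.8% of monocultured cells.

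Messages of the mitochondrial genome went the same way. Of 13 protein-coding genes 10 were higher and none lower, with a median of 0.88. MT-CO1, a catalytic subunit of complex IV, was at 924 CPM (900 to 948) and 2341 CPM (2281 to 2402) and was detected in 43.3% and 86.2% of cells. MT-ND4 was at 921 and 2231 CPM, whereas MT-ND3 (286 and 232 CPM) and MT-ATP8 (567 and 463 CPM) were within the limit. The ribosomal RNAs of the same genome did not: MT-RNR2 was at 20134 CPM in monoculture and 8583 CPM in coculture, a log2 ratio of -1.23, and MT-RNR1 at 512 and 263 CPM. The mitochondrial share of all UMIs, rRNAs included, was 2.79% in monoculture and 2.23% in coculture. Leaving both rRNAs out of the totals gave 305 genes higher and 373 lower.

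In MM.1S cells of the same coculture library, set against their own monoculture, the median log2 ratio was -0.26 for the nuclear list and -0.83 for the mitochondrial genome. MT-CO1 in MM.1S cells was at 5758 and 3118 CPM. The difference between the lines was not tested, and both comparisons draw their cocultured cells from 1 library.

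Protein folding and turnover followed in part. Of 45 measured genes of endoplasmic reticulum folding and the unfolded protein response 10 were higher and 2 lower, with a median of 0.22. TMEM258, of the oligosaccharyl transferase, was at 262 and 676 CPM, the signal peptidase subunit SPCS1 at 134 and 279 CPM, the disulphide isomerase PDIA6 at 141 and 286 CPM and the chaperone HSPA5 (BiP) at 681 and 1108 CPM. ATF4, the factor that drives amino acid response genes, was lower at 237 and 124 CPM. In the amino acid response list 6 of 26 members were lower and none higher, among them MTHFD2 (193 and 109 CPM) and the tRNA synthetase genes TARS (477 and 303 CPM), and GARS (518 and 341 CPM). Of 38 proteasome genes 6 were higher and none lower, with a median of 0.25, and POMP, the assembly factor, was at 384 and 689 CPM. UBB, a polyubiquitin gene, was at 618 and 1415 CPM.

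Redox genes had 6 of 19 members higher and 1 lower. TXN, encoding thioredoxin, was at 1094 CPM (1068 to 1121) and 2119 CPM (2062 to 2177) and was detected in 48.7% and 85.4% of cells. FTL, of ferritin, was at 1706 and 2774 CPM, whereas TXNRD1, the reductase of thioredoxin, was lower at 268 and 136 CPM. The calcium-binding protein gene S100A11 was at 483 and 1040 CPM, detected in 27.3% and 60.5% of cells, and was the 1 member of 14 S100, annexin and galectin genes past the limit, though within it at 0.56 with the length trend removed. Of 8 sterol and fatty acid synthesis genes INSIG1 alone was higher, at 39.1 and 85.9 CPM, and it met the minimum for the mean through the coculture.

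A list of transcription and chromatin genes chosen for their length lay lower in coculture. Of 41 measured members 19 were lower (46.3%, against a background of 9.59%) and none higher. The median was -0.56, or -0.30 with the length trend removed. Since its members were picked for length, the list cannot show how frequent long messages are among the genes that were lower. BDP1, a subunit of the RNA polymerase III factor TFIIIB, was at 557 CPM (538 to 576) and 194 CPM (177 to 212), 2.87-fold lower, detected in 40.8% and 15.2% of thinned cells. ANKRD11 was at 447 and 194 CPM, ATRX at 544 and 297 CPM and BPTF at 542 and 308 CPM. Outside that list, the cytoskeletal linker DST was at 631 and 232 CPM, and the golgins GOLGA4 and GOLGB1 were at 1094 and 453 CPM and at 617 and 272 CPM.

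Genes of ribosome biogenesis were lower in part. Of 36 members of the MYC and ribosome biogenesis list 7 were lower and 2 higher, with a median of -0.21. NCL, encoding the nucleolar protein nucleolin, was at 3773 and 2012 CPM, and DDX21, a nucleolar helicase, at 1050 and 562 CPM. MYC itself was at 101 and 132 CPM. Of 34 translation factors 4 were lower and 2 higher, shares near the background, with a median of -0.03. EIF3A, of the initiation factor eIF3, had the lowest ratio of them, at 2255 and 1092 CPM. Of 25 heat shock genes 3 were lower (HSP90AA1, at 6266 and 3923 CPM, HSPH1 and HSPA8) and 2 higher (HSPE1 and HSPB11). These shares, too, were near the background, and the median of the list was -0.02. Of 72 cytosolic ribosomal protein genes 8 were higher and 1 lower, with a median of 0.18, or 0.024 with the length trend removed, and reads of their many pseudogene copies may have been split.

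Of the cell cycle genes, part of the mitosis list lay lower. None of 31 replication genes passed the limit in either direction. Of 45 mitosis genes 9 were lower and 4 higher, with a median of -0.05. Per cell, the mitosis list held a median of 14 UMIs of 1000 in monoculture, with quartiles of 6 and 27, and 10 in coculture, with quartiles of 4 and 23. CENPE, a kinetochore motor, was at 1185 and 520 CPM and detected in 53.3% and 28.7% of cells, CENPF was at 1836 and 822 CPM, and MKI67 at 791 and 491 CPM. CKS1B, encoding a short cyclin-dependent kinase subunit, was at 104 and 200 CPM, and PTTG1, encoding securin, at 369 and 637 CPM.

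Transcript length ran through these groups. Over the 3657 tested genes with a transcript in GENCODE release 29 the log2 ratio and the length of the longest transcript had a Spearman correlation of -0.40, across genes, which are not independent replicates. The median longest transcript was 1470 bases for genes that were higher, 4701 for genes that were lower and 3598 for the rest. In the 366 shortest genes (78 to 1233 bases) the median log2 ratio was 0.41 and 34.4% were higher. In the 365 longest (7964 bases and more) it was -0.28 and 18.6% were lower. The members of the oxidative phosphorylation list had a median length of 1333 bases and those of the chromatin list 9363 bases.

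With the median ratio of genes of like length subtracted, 154 of the 328 genes that were higher and 230 of the 355 that were lower stayed past the limit. The median of the nuclear oxidative phosphorylation list was then 0.28, that of the mitochondrial genome 0.55, of the interferon list 0.31 and of the chromatin list -0.30. The median of the redox list changed sign, to -0.04. Growth factors were at -0.60 with the trend removed. For single genes the corrected log2 ratio was -3.37 for CSF2, -2.28 for HAS2, 1.55 for ISG20, 1.07 for MT-CO1 and 0.82 for NDUFA12, all past the limit, and 0.44 for IFITM3 and 0.41 for TXN, both within it. Other genes named above as higher that were then within the limit were S100A11, COX6A1, HSPB11, POMP, ISG15, PTTG1, IFI44, FTL, MDK, IL32 and CXCL1. Of those named as lower, FGF2, ITGA6, ALCAM, KLF6, ADAMTS1, MKI67, BPTF and ATRX were. The part of length, or of the library's handling, in these ratios was not tested.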

How the data were processed

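Drop-seq libraries of 1 MM.1S monoculture, 1 HS-5 monoculture and 1 coculture were used, each deposited by the authors as a table of UMI counts, not normalised, with genes in rows and cell barcodes in columns. The submitters' processing notes name UMI-tools 1.0.0, STAR 2.5.3a, featureCounts 1.6.4, SAMtools 1.9, Cell Ranger 3.0.2 and GRCh38/hg38; the annotation release and the strand setting are not given in the sources used here, so overlapping genes cannot be told apart. The 3 tables hold 11822 barcodes, with 10433182, 6143448 and 3981392 UMIs for the MM.1S monoculture, the HS-5 monoculture and the coculture. No doublet caller was run, and cells with an intermediate HS-5 part were left out.

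Barcodes with at least 200 genes were kept. UMIs of the HS-5 cells of each library were summed per gene and scaled to 1000000 (CPM). The log2 ratio used a pseudocount of 1 CPM, and genes averaging 50 CPM or more were called higher or lower at 1.5-fold. With 1 library per condition no p-value was computed. Shares of cells used cells thinned to 1000 UMIs, with exact intervals at 95%. Lengths came from GENCODE release 29 and promoters from RefSeq (GRCh38.p14). The scripts, in Python 3.11.15 with NumPy 2.4.6, SciPy 1.17.1 and pandas 2.3.3, were tested on simulated data. Genes named in the text were the 25 highest and 25 lowest ratios among genes averaging 100 CPM or more, the 5 highest and 5 lowest members of each of 33 lists, secreted factors the study measured and cell type markers; HSPA5, JUN, NFKB1, MYC, RELB, FOS, IL11 and IFIT1 among the list members, and the histone genes, HES1, C15orf48, IGLC2 and MT-RNR1, fall outside that rule in part and were chosen after their values were seen. The rule, the cells and the lists were chosen with earlier results of these data known. Some genes that the rule picks are not reported here. Alternatives changed the cell filter, the scaling, the weighting of cells, the pseudocount, the level minimum, the HS-5 limit and the free RNA, and the length trend, the shared barcodes and the mitochondrial rRNAs were added after seeing the data.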

Additional observations from a re-analysis of the deposited data

Results flagged for a closer look

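For the following lists and genes the log2 ratios in HS-5 and MM.1S cells had opposite signs. The difference between the lines was not tested, each line had 1 library per condition, and both ratios use the coculture library. Over all genes averaging 50 CPM or more the median log2 ratio was -0.02 in HS-5 and 0.18 in MM.1S cells. Among gene lists, the median was 0.48 in HS-5 and -0.26 in MM.1S cells for nuclear oxidative phosphorylation genes. It was 0.88 and -0.83 for the mitochondrial genome, 0.35 and -0.22 for cholesterol and fatty acid synthesis, 0.22 and -0.35 for S100 proteins, annexins and galectins, and 0.24 and -0.23 for metallothioneins and oxidative stress genes. With the length trend removed, the HS-5 medians of the S100 and the metallothionein lists were 0.012 and -0.044, so that the latter no longer had the opposite sign. In the other direction it was -0.26 and 0.56 for the amino acid response, -0.21 and 0.69 for MYC and ribosome biogenesis and -0.56 and 0.80 for long chromatin genes. Among single genes MT-ND4L had a log2 ratio of 1.28 in HS-5 and -2.42 in MM.1S cells. BDP1 was at -1.52 and 1.14, GOLGA4 at -1.27 and 1.36, ZBTB7A at -1.25 and 1.95, ANKRD11 at -1.20 and 2.02, PRRG3 at -1.10 and 2.35 and RANGAP1 at -1.06 and 1.02. Median UMIs per cell also differed between the libraries in MM.1S cells, at 2201 in monoculture and 668 in coculture, against 971.5 and 957 in HS-5 cells. The part of depth in these opposite signs was not tested.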

How the results depend on the processing

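No paired analysis was possible because each condition was 1 library. No replicate could be left out for the same reason. Against 328 genes higher and 355 lower, cells with 200 to 2500 genes and under 5% mitochondrial UMIs gave 542 and 541, equal weight per cell gave 548 higher, and cells thinned to 500 UMIs gave 592 and 575. Removing the length trend gave 191 higher. A minimum of 10 CPM gave 694 and 879, a minimum of 100 CPM 195 lower, no minimum 4250 and 4853, and a 2-fold limit 43 and 53. The Spearman correlation with length was -0.27 at a minimum of 10 CPM and -0.20 with the median transcript. The median of the metallothionein and oxidative stress list was -0.044 with the length trend removed, and the share of cells with COL1A2 differed by -0.820 percentage points, coculture minus monoculture, where cells were not thinned, against 7.11 when thinned. The cause of these moves was not tested. Of 344 named genes 172 were past 1.5-fold, 104 of them under every alternative run, and 46 were within it with the length trend removed. Without replicates, the spread between cultures is unknown, and counts of 3 UMIs or fewer, 1.21 CPM in cocultured cells, limit what could be seen.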

Other observations

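Histone messages, most of which lack a poly(A) tail, moved in opposite directions. HIST1H4C was at 1391 CPM (1361 to 1420) in monocultured and 2721 CPM (2656 to 2787) in cocultured HS-5 cells, and was detected in 49.1% and 55.8% of thinned cells. Cells with a HIST1H4C UMI held a mean of 2.60 UMIs of it in monoculture and 4.94 in coculture. The linker histone genes HIST1H1D and HIST1H1E were lower, at 110 and 20.6 CPM and at 48.0 and 8.88 CPM. In MM.1S cells the log2 ratios of HIST1H1D and HIST1H1E were -3.75 and -3.58, and that of HIST1H4C was 0.37.

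With a mean between 50 and 100 CPM, HES1, a repressor induced by Notch, was at 29.3 CPM in monoculture (25.2 to 33.9) and 97.2 CPM in coculture (85.3 to 110), a log2 ratio of 1.70. C15orf48, which encodes a small mitochondrial protein induced in inflammation, was at 39.6 and 120 CPM. Both genes met the minimum for the mean through the coculture. In MM.1S cells HES1 was at 1.25 and 7.52 CPM.

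IGLC2, a light chain constant gene with 36552 CPM in monocultured MM.1S cells, had 0 UMIs in 3732 monocultured HS-5 cells and 273 UMIs in 2105 cocultured HS-5 cells, or 110 CPM. It met the minimum for the mean through the coculture alone. At these levels it meets the rule for MM.1S line genes, so its scarcity in both groups of HS-5 cells was set in part by that rule. The part of free RNA of MM.1S cells in its UMIs was not tested for this gene.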
